A study of Mus musculus with 3 samples.

Results

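Mouse macrophages expressed 101 antisense RNA genes, selected on their measured level: the rule took genes whose transcripts all carry the GENCODE biotype antisense and that reached 1 TPM in every library. TPM is a gene's share of all transcripts after division by length, scaled to a fixed total. They came from 2948 all-antisense genes among 55536 annotated genes. Another 1916 of the 2948 had no counts in any library. The cells were primary macrophages grown from bone marrow of C57BL/6J mice, and no unstimulated samples were analysed here. All 3 libraries had received one stimulus at 100 ng/mL for 480 minutes, called lipid A in the sample descriptions and lipoprotein A in the treatment fields. Polyadenylated RNA was sequenced, with 1 library per biological replicate. The labels give a separate biosample for each replicate and record neither sex nor age. They do not say whether cultures or animals were separate, so every spread below is the spread between these libraries. Since the TPM values chose the genes, their levels are a description with no test, and no comparison with unstimulated cells was possible.

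An antisense RNA is transcribed from the strand opposite another gene, its sense partner. Some act on the partner in cis, as Airn does in the imprinted silencing of Igf2r, and many arise next to a partner's start from the same promoter region. For most of the genes described here no function is established. Where an antisense exon lies opposite a sense exon, a read can be placed on its gene only if the library keeps the strand and the counting uses it. The strand setting of the counting is not given in the sources used here, so without it reads of a gene and of its partner cannot be told apart.

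The pairs that overlap most completely show what the counting had to separate. Gm26716, Gm17139 and Gm17122 each lie, over 100% of their exonic bases, opposite the untranslated exons of one partner. These partners are Sdc3 (syndecan-3, a cell-surface proteoglycan), Arel1 (an E3 ubiquitin ligase) and Coro1c (an actin-binding coronin). Below, 30 bases from the middle of each gene's longest exon stand beside the same stretch of the partner's mRNA, all 5′ to 3′ from the GENCODE M21 transcripts on GRCm38. Capitals mark the complementary bases, which here are the whole stretch. The stretch is in 1 of 5 transcripts of Sdc3, 2 of 8 of Arel1 and 2 of 11 of Coro1c.
Gm26716 (chr4:130826188-130826217, minus strand): CTTCCCAAGCCAGGGGTGTACGAGCGCCCA
Sdc3, same bases on its own strand: TGGGCGCTCGTACACCCCTGGCTTGGGAAG
Gm17139 (chr12:84918330-84918359, plus strand): GAGGGCAGCTGGTCTCCCAAGTACCTATGT
Arel1, same bases on its own strand: ACATAGGTACTTGGGAGACCAGCTGCCCTC
Gm17122 (chr5:113842731-113842760, plus strand): GCAGTGTGAGTCATTCCAGCCATGGTCTCT
Coro1c, same bases on its own strand: AGAGACCATGGCTGGAATGACTCACACTGC

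The splice junction is where these RNAs differ from their partners. Each of the 3 has 2 exons. The reverse complement of its 30-base junction is in none of the 5 annotated transcripts of Sdc3, the 8 of Arel1 or the 11 of Coro1c. Across all 30-base windows of the antisense transcript, 92.7% were complementary to a partner transcript for Gm26716, 95.8% for Gm17139 and 92.4% for Gm17122. The rest include the 30-base window centred on the junction. The junctions are shown with the end of exon 1 in lower case and the start of exon 2 in capitals.
Gm26716 junction: tgaactcaggacaggCTGTGCCAACTGCCT
Gm17139 junction: aaatgcttctgaacaGTCAGGCAGGGTTCT
Gm17122 junction: ttacaacactacccaGTCGTCTGCTTCCAT

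The antisense genes were a small and concentrated fraction of the RNA. Their summed level was 1005, 918 and 1056 TPM in replicates 1, 2 and 3, or 992.9 ± 70.0 TPM (SD, n = 3), which is 0.0993% of all TPM. The median gene had a mean of 3.31 TPM, against 13.96 TPM for the 9930 genes of any type that reached 1 TPM in every library. The 101 long intergenic noncoding genes that passed the same threshold had a median of 4.18 TPM. Only 4 antisense genes averaged 50 TPM or more, 18 lay between 10 and 50, 58 between 2 and 10, and 21 under 2. The top 4 held 35.2% of the sum and the top 20 held 70.6%. These shares rest on the gene-level values. In a second quantification, described below, Gm26716 of the top 4 had 0, 0 and 0.19 TPM. Of the top 20, Gm47428, Gm17139, Gm47248 and Gm17122 were also at least 2-fold lower there in every library. Gm37787, Gm16094 and Gm28913 were at least 2-fold higher.

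In counts, the antisense genes took 16700, 18814 and 30367 expected counts in replicates 1, 2 and 3, out of 26589042, 34344922 and 48356527 on gene entries. The shares were 0.0628% (95% Wilson interval 0.0619 to 0.0638), 0.0548% (0.0540 to 0.0556) and 0.0628% (0.0621 to 0.0635). Replicate 2 had the lowest share, outside the intervals of the other libraries, which cover counting error only. That library also stood apart in its cell markers. Summed over 7 neutrophil genes, the level was 420.5 TPM in replicate 2, against 22.9 TPM in replicate 1 and 21.4 TPM in replicate 3. In bulk RNA, fewer cells of a type and less RNA per cell cannot be told apart. All 9 macrophage markers were detected in every library, while the defining markers of T, B, NK and mast cells and of fibroblasts averaged under 1 TPM. Of 3 dendritic cell markers only Ccr7 did not, and it too was highest in replicate 2, at 17.8 TPM, against 4.16 TPM in replicate 1 and 4.68 TPM in replicate 3. Mcpt8, Cpa3 and Prg2, listed as mast cell and basophil markers, summed to 3.07 TPM in replicate 2, against 0.10 and 0.05 TPM in replicates 1 and 3. Most of that sum was Prg2, at 2.08 TPM, with Mcpt8 at 0.70 TPM and Cpa3 at 0.29 TPM. The part of all these markers in the antisense levels was not tested.

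**Figure D1:**
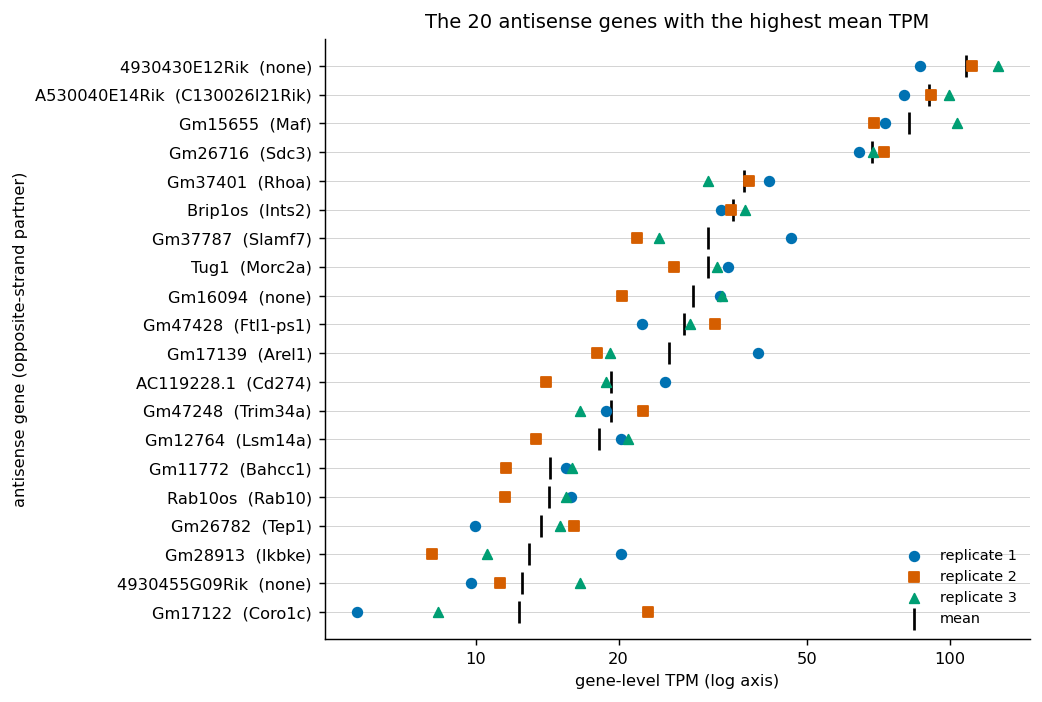
Gene-level TPM (log axis) of the 20 antisense genes with the highest mean, with the opposite-strand partner of each in brackets, 1 point per library and a bar for the mean of 3. Levels run from 108 TPM for 4930430E12Rik to 12.3 TPM for Gm17122, whose libraries spread the most.

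The most abundant antisense gene was 4930430E12Rik (ENSMUSG00000085295.7, chr4:6352105-6357530, minus strand), with 86.7, 112 and 126 TPM in replicates 1, 2 and 3. It overlaps no gene on the other strand. The nearest opposite-strand start is 8120 bases away, at Sdcbp, which encodes the scaffold protein syntenin. A530040E14Rik (chr1:85105946-85114035, plus strand) followed with 80.0, 91.2 and 99.5 TPM. Of its exonic bases, 14.8% lie opposite exons of C130026I21Rik, which had 248, 157 and 267 TPM. Both sit in a cluster of related genes, and how far this affects their counts was not tested. For A530040E14Rik the model's posterior SD, described below, was 0.398% of the count. The second quantification of A530040E14Rik, also described below, gave 104, 117 and 128 TPM.

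The next genes lie inside the exons of highly expressed partners. Gm15655 (chr8:115705078-115707233, plus strand) had 72.9, 69.4 and 103 TPM. All of its 440 exonic bases lie opposite the untranslated exon of Maf, a bZIP transcription factor of macrophages, which had 181, 93.6 and 129 TPM. Replicate 3 was the highest for Gm15655 and replicate 1 for Maf. Gm26716 (chr4:130824394-130826313, minus strand) had 64.3, 72.7 and 68.8 TPM, against 350, 343 and 355 TPM for Sdc3. The libraries of both genes lay close together, and the coefficient of variation of Gm26716 was 6.09%. Gm37401 (chr9:108337089-108338273, minus strand) had 41.6, 37.8 and 30.8 TPM and has 93.4% of its exonic bases opposite untranslated exons of Rhoa, a small GTPase of the cytoskeleton. Rhoa itself had 358, 417 and 340 TPM.

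Brip1os and Tug1 were abundant and largely free of exon overlap. Brip1os (chr11:86201370-86304443, plus strand) had 33.0, 34.6 and 37.0 TPM, with 20.2% of its exonic bases opposite exons. Tug1 (chr11:3639785-3649673, minus strand), a conserved polyadenylated noncoding RNA, had 34.0, 26.2 and 32.3 TPM, with 4.96% opposite exons of Morc2a. These 2 genes had the most counts behind them, 2378 to 4909 per library for Brip1os and 2392 to 4284 for Tug1. The libraries of Brip1os lay close together (coefficient of variation 5.82%), and Tug1 was lowest in replicate 2.

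A second quantification of the same libraries, made from the reads without an alignment, gave another reading of each gene. Over the 101 genes its level differed from the gene-level table by a median log2 difference of -0.07 (second minus gene-level, TPM + 0.1), against -0.23 over all 9930 expressed genes. The summed level was 1279 ± 48.4 TPM in the second quantification and 992.9 ± 70.0 TPM in the gene-level one (SD, n = 3). Single genes moved much more than the median. The most abundant one, 4930430E12Rik, had 169, 276 and 268 TPM in the second quantification, against 86.7, 112 and 126 TPM (log2 difference 1.12 ± 0.17). In 3 of 3 libraries, 9 genes were at least 2-fold lower in the second quantification, a call made for 2.37% of all expressed genes. Another 10 were at least 2-fold higher, a call made for 0.584%. The same calls were made for 34 lower and 19 higher among 9248 protein-coding genes, and for 7 lower and 11 higher among the 101 long intergenic genes. The choice of genes with at least 1 TPM used the gene-level table, so a lower second value is partly built into the choice. No test is given for either count.

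The lower calls went with position relative to the partner. The 101 were sorted by the share of exonic bases that lie opposite exons of any gene. In 19 the share was 50% or more, 63 had a smaller share, 11 lay opposite introns only and 8 overlapped no opposite-strand gene. Of the 19 with the largest overlap, 8 were at least 2-fold lower in the second quantification and 2 were higher, with a median log2 difference of -0.72. Of the 63 with partial overlap, 1 was lower and 5 were higher, with a median of -0.07. That one was Gm47428, whose share of 49.8% is just under the limit. Among the 11 intronic genes 0 were lower and 2 higher (median 0.53), and among the 8 without overlap 0 were lower and 1 higher (median -0.19).

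**Figure D2:**
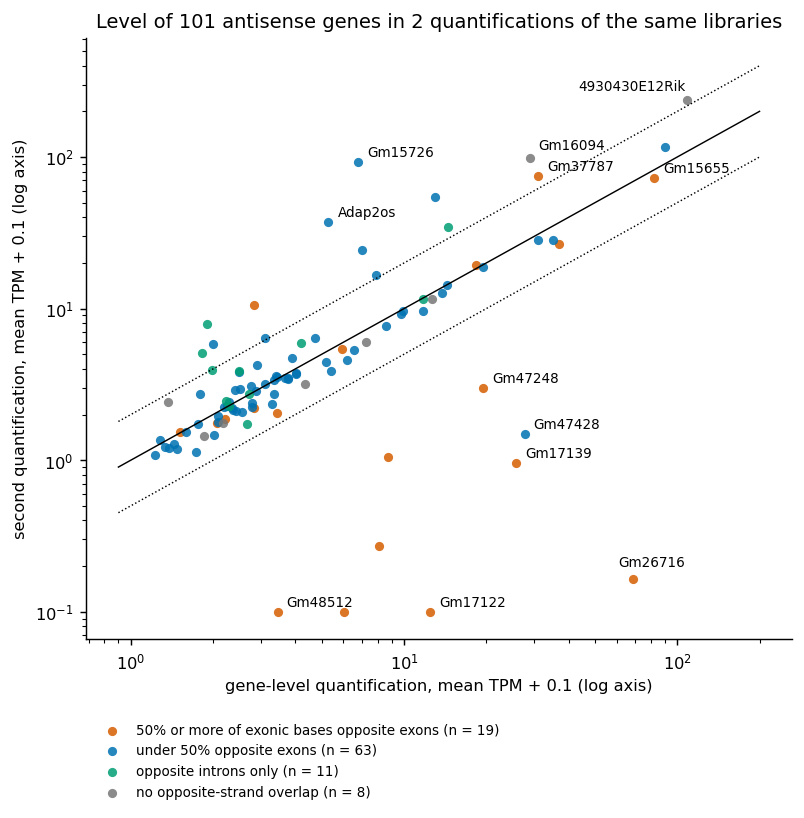
Mean TPM + 0.1 of each antisense gene in the second quantification (vertical, log axis) against the gene-level one (horizontal, log axis), coloured by exon overlap with the other strand. The solid line is equality and the dotted lines are 2-fold. The points far below the lines belong to genes that lie opposite exons over 50% or more of their exonic bases, or, for Gm47428, 49.8%.

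Gm26716 showed the largest drop. The second quantification gave 0, 0 and 0.19 TPM, against 64.3, 72.7 and 68.8 TPM at the gene level, a log2 difference of -8.91 ± 0.89 (SD, n = 3). Gm17122 was listed at 0 in all 3 libraries of the second quantification, against 5.60, 23.1 and 8.30 TPM at the gene level. Its gene-level libraries do not agree among themselves, since replicate 2 was the highest by far. Gm17139 had 2.10, 0 and 0.45 TPM, against 39.5, 18.0 and 19.1 TPM. Gm47248, opposite untranslated exons of the antiviral-family gene Trim34a, had 8.73, 0 and 0 TPM, against 18.8, 22.5 and 16.6 TPM. In all of these the lowest gene-level library was above the highest library of the second quantification.

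The other 5 genes with lower second values were Gm20659, Gm48512, Gm44709, Gm20463 and Gm47428. Gm20659, opposite the untranslated exon of the phosphatase gene Dusp3, was listed at 0 in each library, against 6.37, 4.29 and 7.15 TPM at the gene level. Gm48512, opposite Kif3c (a kinesin motor), was also at 0 throughout, against 5.20, 3.74 and 1.09 TPM, and shares 32.1% of its exonic bases with 1110002L01Rik on its own strand. Gm44709 had 0.51, 0 and 0 TPM, against 9.18, 9.35 and 5.47 TPM, opposite Supt5, a transcription elongation factor. Gm20463, opposite the ubiquitin ligase gene Rnf5, had 2.84, 0 and 0 TPM, against 8.81, 7.43 and 9.63 TPM. Gm47428 (1.50, 1.82 and 0.85 TPM, against 22.4, 31.9 and 28.2 TPM) lies opposite a ferritin light chain pseudogene, one of several near-identical copies, so its counts are uncertain. For 3 of the 101 genes the second quantification gave 0 in every library. With these 3 included, 4 stayed under 0.5 TPM in every library.

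Not all genes inside partner exons behaved this way. Gm15655, wholly opposite Maf, had 105, 48.2 and 64.7 TPM in the second quantification, against 72.9, 69.4 and 103 TPM, so the order of the libraries changed and the ranges overlapped. Gm37401 had 78.2, 1.22 and 0 TPM, against 41.6, 37.8 and 30.8 TPM. Its second value was above the gene-level one in replicate 1 and far below it in the others. Gm12764, with 55.8% of its bases opposite exons of Lsm14a (a P-body protein), had 19.8, 16.5 and 21.8 TPM, against 20.3, 13.4 and 20.9 TPM. Here the quantifications lay within the spread between libraries.

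The gene-level table carries its own measure of how firmly a count was placed, the posterior standard deviation of the count under the authors' model. A value of 0 means that the model's count did not vary. As a percent of the count, it had a median of 9.16% in the 19 genes with the largest exon overlap, 0.242% in the 63 with partial overlap and 0% in both other classes. It was 0 for 40 of the 101 genes and for 0 of those 19, and for 6456 of all 9930 expressed genes. It exceeded 20% in 7 genes, which were Gm48512 (47.8%), Gm17122 (35.5%), Gm37401 (30.8%), Slfn5os (30.3%), Gm20463 (29.3%), Gm43079 (28.7%) and Gm44709 (20.8%). Of all 9930 expressed genes, 117 exceeded 20%. Of the 7 antisense genes, 6 are in the class with the largest exon overlap. The other one, Gm43079, has 100% of its exonic bases inside exons of Acad9 on its own strand. Gm26716 had a posterior SD of 3.45% of the count, while its second value was near 0.

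**Figure D3:**
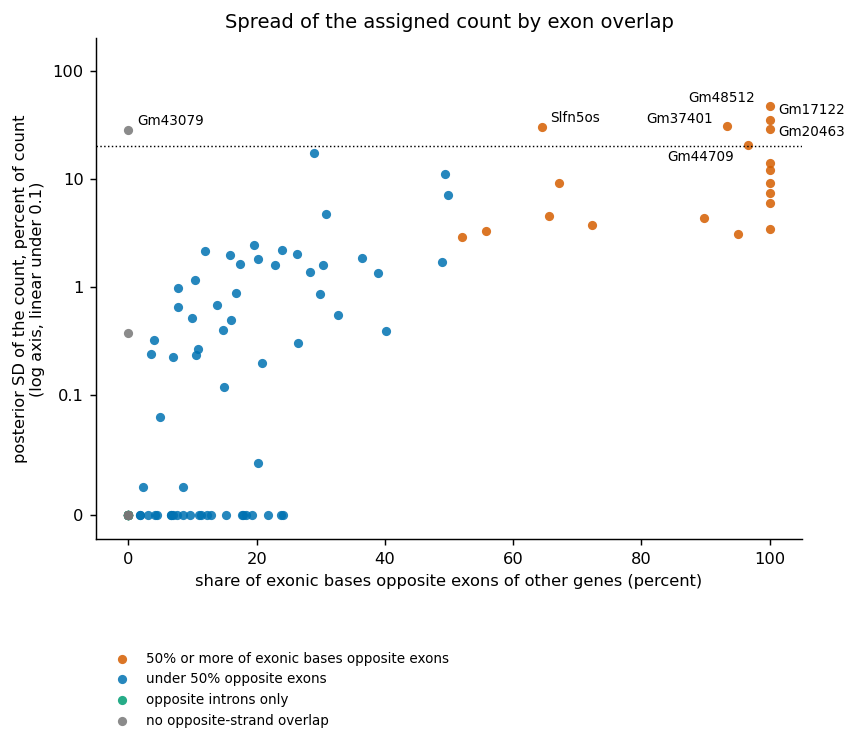
Posterior SD of the expected count as a percent of the count (vertical, log axis that is linear under 0.1) against the percent of exonic bases opposite exons of other genes (horizontal), 1 point per antisense gene. The dotted line marks 20%, and the 7 genes above it are named.

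Length went with the same calls. The 22 genes under 600 exonic bases held 6 of the 9 lower and 6 of the 10 higher calls, while the 79 longer genes held 3 and 4. The 3 longer genes with lower calls were just over that limit: Gm20659 (604 bases), Gm47248 (609) and Gm47428 (661). Median exonic length was 604 bases in the 19 genes with the largest exon overlap and 1668 in the 63 with partial overlap. Length and overlap were therefore not separated here. Among the higher calls, Gm15726 (509 exonic bases) had 78.8, 114 and 86.9 TPM in the second quantification, against 7.81, 7.32 and 4.91 TPM at the gene level (log2 difference 3.79 ± 0.42). It lies opposite Mid1, a ubiquitin ligase gene at the pseudoautosomal boundary where the sex chromosomes share sequence, so both values are uncertain. Adap2os had 36.5, 38.0 and 36.5 TPM, against 8.03, 3.11 and 4.42 TPM (2.92 ± 0.70). The second values of Adap2os were nearly equal between libraries, and the gene-level ones were not. Gm28913 had 70.3, 44.8 and 48.2 TPM, against 20.2, 8.06 and 10.5 TPM (2.15 ± 0.33). Both quantifications placed replicate 1 highest for this gene.

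The remaining higher calls were Gm37787, Gm16094, Gm13822, Slfn5os, Gm15133, Gm15122 and Gm26740. Gm16094 (chr1:85599286-85599839, plus strand) overlaps no gene, starts 469 bases from the interferon-inducible gene Sp110, and had 94.7, 82.0 and 117 TPM, against 32.8, 20.3 and 33.0 TPM. Gm37787, opposite the immune receptor gene Slamf7, had 98.0, 66.8 and 58.0 TPM, against 46.2, 21.9 and 24.4 TPM. For both, the lowest second value was above the highest gene-level value. Across all 2948 antisense genes, 82 reached 1 TPM in every library in both quantifications, 77 in the second only and 19 at the gene level only.

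Sense partners were mostly the stronger gene of the pair. An opposite-strand partner, the gene with the longest overlap, was found for 93 of the 101, and 92 of these partners are protein-coding. The level of the antisense gene was below its partner in 3 of 3 libraries, with a mean log2 difference beyond 2 SD, in 63 pairs. By the same rule 22 were above and 8 were not apart. Among the 4352 expressed genes of any type with an opposite-strand partner, 14.6% were below it and 78.2% were above. The median log2 difference was -2.27 for the antisense genes and 4.96 for those 4352. The 1 TPM rule was put on both sets but not on their partners, so a level above the partner is partly built in. Of all 9930 expressed genes 9248 are protein-coding, so the sets also differ in gene type, and their contrast is a description only. TPM is per length, so these are differences between levels. The partner reached at least 1 TPM in all libraries in 78 pairs and did not in 15.

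**Figure D4:**
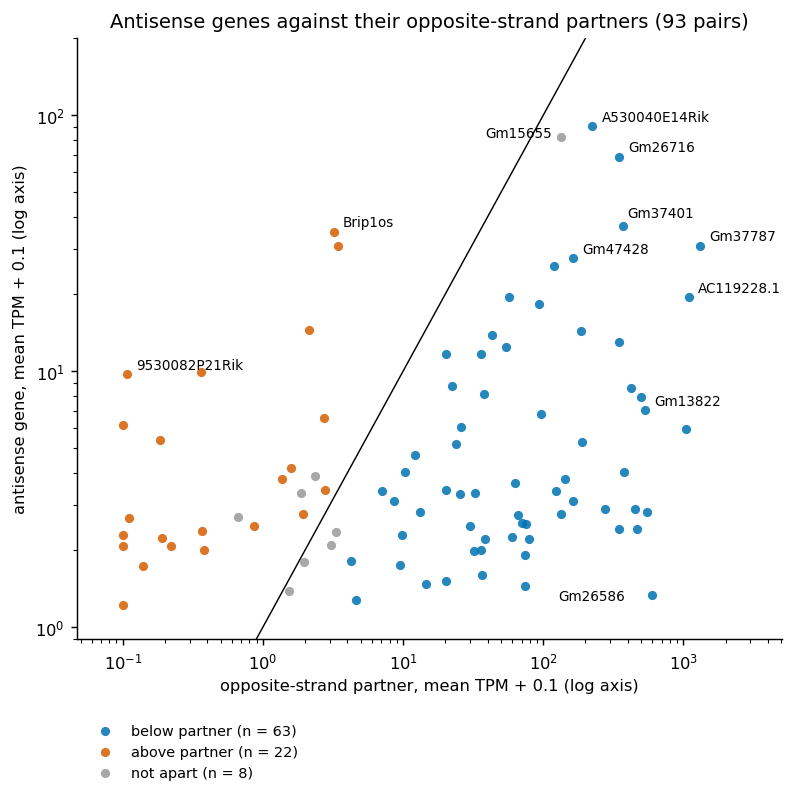
Mean TPM + 0.1 of each antisense gene (vertical, log axis) against that of its opposite-strand partner (horizontal, log axis) for 93 pairs. The line is equality, blue points are below the partner, orange above and grey not apart.

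The lowest level relative to a partner was that of Gm26586, with 1.51, 1.15 and 1.03 TPM. Its partner Tpm4, a tropomyosin of the actin cytoskeleton, had 618, 625 and 551 TPM (log2 difference -8.83 ± 0.21). Slfn5os had 2.42, 1.52 and 4.20 TPM, against 611, 439 and 594 TPM for Slfn5, a Schlafen family gene (-7.71 ± 0.52). The level of Slfn5os is uncertain, since it rests on 12.3, 9.56 and 36.2 counts. Its second quantification was higher, at 14.4, 4.86 and 12.1 TPM. Gm19412 had 4.21, 3.51 and 9.81 TPM, against 1128, 956 and 1065 TPM for Tapbp, which encodes the peptide-loading factor tapasin (-7.61 ± 0.75). In each of these pairs every library of the antisense gene was below every library of its partner. 4930539J05Rik (-7.60 ± 0.21, opposite the ubiquitin-conjugating enzyme gene Ube2d3) and Gm11131 (-7.29 ± 0.31, opposite H2-Q4) were next. H2-Q4 belongs to the MHC class I family of near-identical copies, so that pair is uncertain.

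At the other end stood antisense genes whose partner was nearly silent. 9530082P21Rik had 10.1, 7.04 and 11.8 TPM, against 0, 0 and 0.02 TPM for Kremen2, a receptor for Dickkopf proteins. Sp3os had 6.86, 4.67 and 6.69 TPM, and its partner by overlap, Gm11084, was listed at 0. The gene it is named for, Sp3, starts 1022 bases from it and averaged 18.2 ± 2.48 TPM. Trmt61b, the annotated antisense gene of that symbol, had 9.60, 8.97 and 10.8 TPM, against 0.23, 0.31 and 0.25 TPM for Spdya, a cell-cycle regulator. Gm27177, opposite Loxl2, and A630012P03Rik, opposite Gpc3, complete the 5 highest. Brip1os also exceeded its partner, with 33.0, 34.6 and 37.0 TPM, against 2.45, 4.17 and 2.69 TPM for Ints2, an Integrator subunit (log2 difference 3.48 ± 0.40). Brip1, the DNA helicase gene it is named for, averaged 1.03 ± 0.20 TPM. Tug1 exceeded Morc2a, an ATPase of chromatin silencing, which had 2.93, 3.85 and 3.20 TPM (3.17 ± 0.39).

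The partners were sorted by symbol into immune gene lists, with no count of the lists over all genes. Of the 93, 3 fall in an interferon and antiviral list (Trim34a, Oasl1 and Trim12a), 2 in a Toll-like receptor and NF-kB list (Traf3ip2 and Tnfsfm13), 1 in a cytokine list (Il7) and 1 in a list of macrophage transcription factors (Maf). The other 86 are in none of these lists. Gm13822 (chr5:114917318-114923277, minus strand) had 6.58, 6.89 and 7.28 TPM, against 471, 671 and 462 TPM for Oasl1, an interferon-induced gene (log2 difference -6.23 ± 0.32). The libraries of Gm13822 lay close together but hold 12, 14 and 21 counts, while replicate 2 was the highest for Oasl1. The second quantification of Gm13822 was higher in every library, at 21.3, 22.9 and 28.9 TPM (1.79 ± 0.16). Gm16685 had 4.41, 4.06 and 2.55 TPM, above Il7, a lymphocyte growth factor, at 1.26, 1.24 and 1.28 TPM (1.44 ± 0.43).

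Further pairs with immune partners were picked after their values were seen and are given as values only. AC119228.1 (chr19:29373417-29384471, minus strand) had 25.1, 14.1 and 18.8 TPM, against 963, 1174 and 1160 TPM for Cd274, which encodes the checkpoint ligand PD-L1. Of its exonic bases, 10.8% lie opposite coding exons, and its second quantification was close to the gene-level one, at 21.1, 16.2 and 18.7 TPM. A930007I19Rik, which lies opposite introns of Pdcd1lg2 (PD-L2), had 4.65, 2.66 and 4.94 TPM, against 1.82, 1.25 and 1.35 TPM for Pdcd1lg2. By these values AC119228.1 was below Cd274 and A930007I19Rik above Pdcd1lg2. However, A930007I19Rik overlaps Pdcd1lg2 over only 6412 bases of its span. It starts 877 bases from Ric1 on the other strand, which averaged 47.7 ± 9.37 TPM, above A930007I19Rik.

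Ikbke, the kinase IKK-epsilon, carries a pair of antisense genes. Gm28913 had 20.2, 8.06 and 10.5 TPM and Gm28914 had 3.81, 1.34 and 1.79 TPM, against 447, 283 and 316 TPM for Ikbke. Gm16712 had 12.8, 5.28 and 7.42 TPM, against 536, 301 and 425 TPM for Ebi3, a subunit of interleukin-27. In all these genes, antisense and sense, replicate 1 was the highest and replicate 2 the lowest. With 3 libraries no correlation is given. Gm17017 had 6.20, 1.90 and 3.70 TPM, against 397, 351 and 389 TPM for Sp140, an interferon-inducible nuclear body gene of a family with close copies. Dnmt3aos had 2.86, 1.47 and 2.92 TPM, against 59.9, 61.8 and 103 TPM for Dnmt3a, a DNA methyltransferase.

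Some antisense genes start close to a gene on the other strand. Such a start lay within 1000 bases for 39 of the 101. The same count was not made over all expressed genes, so whether this share is unusual is not known. The closest were 6330418K02Rik (10 bases from BC037034), 2810001G20Rik (16 bases from Cox10, a gene of heme A synthesis), Gt(ROSA)26Sor (32 bases from Setd5) and Gm13822 (37 bases from Oasl1). Gt(ROSA)26Sor, the locus widely used for transgenes because it is active in most mouse cells, had 12.4, 11.6 and 10.8 TPM, and Setd5 averaged 20.4 ± 3.17 TPM. Its libraries were close together (coefficient of variation 7.16%). The 39 had a median of 2.79 TPM, and 1 was lower and 3 were higher in the second quantification by at least 2-fold.

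RefSeq promoters (GRCm38.p6, 250 bases before to 50 after a start) were matched for 44 of the 101 antisense genes and for 33 of the neighbouring genes. Each motif was searched on both strands. The interferon response motif, a pair of GAAA units with any 2 bases between them, was in 4 of the 44 (9.09%) and in 4 of the 33 (12.1%), and 3.99% of 27025 genes had it. The PU.1 motif GAGGAAGT was in 6 of the 44 (13.6%) and 3 of the 33 (9.09%), against 3.69% of all genes. The AP-1 motif TGANTCA was in 4 of the 44 (9.09%), against 8.97%, and the NF-kB motif, GGGA and TTTCC with any base between, in 0 of the 44, against 0.466%. CCAAT was in 22 of the 44 (50%) and 20 of the 33 (60.6%), against 41.1%. TATAAA was in 3 of the 44 (6.82%), against 15.7%. The median promoter held 11 CG dinucleotides for the antisense genes, 21 for the neighbours and 7 over all 32851 promoters. These counts are small, no test was made, and a match is not a site.

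The 250 bases before the start are shown for 2 of the shared regions with the interferon response motif, which is in capitals. Brip1os starts 177 bases upstream of Brip1, inside the first stretch. The second has the starts of 2810001G20Rik and Cox10 within 16 bases of each other, and also holds the PU.1 motif near its end.
Brip1 upstream (chr11:86201194-86201443, minus strand): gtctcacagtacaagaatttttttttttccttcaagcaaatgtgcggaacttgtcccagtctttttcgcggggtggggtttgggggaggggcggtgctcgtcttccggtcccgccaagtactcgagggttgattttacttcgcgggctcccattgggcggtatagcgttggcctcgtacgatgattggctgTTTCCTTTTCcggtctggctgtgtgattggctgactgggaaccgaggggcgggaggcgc
Cox10 upstream (chr11:64079473-64079722, minus strand): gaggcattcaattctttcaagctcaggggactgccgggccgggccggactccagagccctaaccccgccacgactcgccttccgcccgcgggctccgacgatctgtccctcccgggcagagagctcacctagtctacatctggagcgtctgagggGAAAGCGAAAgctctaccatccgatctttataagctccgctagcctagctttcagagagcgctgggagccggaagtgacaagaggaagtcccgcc

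The levels beside these promoters were unequal. Brip1os had 33.0, 34.6 and 37.0 TPM, and Brip1 averaged 1.03 ± 0.20 TPM. In contrast 2810001G20Rik had 2.51, 1.11 and 1.62 TPM, and Cox10 averaged 4.47 ± 1.73 TPM (SD, n = 3). The antisense gene was the stronger at the first and the weaker at the second. Gna13 and Trim12a, the other neighbouring genes with the motif, averaged 162 ± 31.5 and 73.7 ± 5.89 TPM. The antisense genes beside them, Gm11696 and Gm15133, were weaker, at 3.01 ± 0.83 and 1.80 ± 0.68 TPM. 4930599N23Rik, which has the motif in its own promoter, starts 124 bases from the antiviral gene Parp12 and had 2.90, 2.58 and 3.51 TPM, while Parp12 averaged 315 ± 13.4 TPM. Parp12 itself is not among the 4 neighbouring genes in which the motif was found.

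Of the antisense RNAs with well-known names, 3 were among the 101. Airn, the imprinted transcript over the insulin-like growth factor 2 receptor gene, had 1.74, 1.59 and 2.33 TPM, against 28.5, 38.5 and 28.3 TPM for Igf2r. It lies opposite introns only and its second quantification was higher, at 3.56, 2.93 and 5.08 TPM, a little under 2-fold on average (log2 difference 0.97 ± 0.13). Hotairm1, a transcript of myeloid cells, had 1.68, 1.99 and 2.27 TPM, but on only 3, 6 and 6 counts. Zeb2os (72.5, 96.9 and 66.5 TPM) and Zfas1 (48.2, 30.8 and 46.3 TPM) were higher than nearly all of the 101 but have transcripts of another biotype, so the rule left them out. Il1bos, antisense to the interleukin 1 beta gene, had 0.50, 0.59 and 0.35 TPM, under the threshold. Tsix, the antisense partner of the X-inactivation transcript, and Wt1os had no counts.

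Among the genes with a symbol ending in os, Rab10os had 15.9, 11.5 and 15.5 TPM, opposite Rab10, a GTPase of membrane traffic, at 200, 203 and 156 TPM. Peak1os had 5.45, 2.13 and 4.17 TPM, against 10.8, 7.31 and 12.4 TPM for Peak1, a pseudokinase. In both the antisense gene was below its partner in every library. Mypopos had 3.19, 1.72 and 2.22 TPM, above Mypop at 0.82, 0.87 and 0.61 TPM. Tnfsf13os had 1.87, 1.66 and 1.43 TPM on 10 to 13 counts. Plxna4os1 had 2.21, 2.18 and 2.01 TPM, while Plxna4, a semaphorin receptor gene, was nearly silent at 0.05, 0.16 and 0.06 TPM.

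F630028O10Rik is the host of the microRNA gene Mir223 on its own strand, a microRNA typical of myeloid cells. It had 2.16, 1.63 and 2.43 TPM and overlaps no opposite-strand gene. Gm11772, opposite introns of Bahcc1, had 15.5, 11.6 and 16.0 TPM, above Bahcc1 at 1.99, 1.76 and 2.39 TPM. Gm26782 starts 236 bases from Tep1, a telomerase-associated gene, and had 9.93, 16.1 and 15.1 TPM, against 47.6, 39.7 and 42.0 TPM for Tep1. Its library order ran opposite to that of Tep1, with replicate 1 the lowest for the antisense gene. 4930455G09Rik, without an opposite-strand gene, had 9.76, 11.2 and 16.6 TPM.

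Spread between libraries was larger for antisense than for protein-coding genes. The median coefficient of variation was 24.3% for the 101 antisense genes, 28.8% for the long intergenic ones, 14.9% for protein-coding and 15.5% for all expressed genes. The biological coefficient of variation from edgeR, which allows for counting error, had a median of 29.8% against 18.6% for all expressed genes. A chi-square test of the counts of the 3 libraries called 52 of 96 antisense genes with enough counts as varying beyond counting error, or 54.2% (Benjamini-Hochberg adjusted over all genes tested). The same call was made for 70.9% of all 12414 genes tested. The test calls smaller spreads at higher counts, and the antisense genes were at lower levels than most. Without replicate 2 the call was made for 25 of 97 antisense genes tested and for 41.9% of 12422 genes, so it fell over all genes too.

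The widest spread was that of Gm17122, at 76.5%, followed by Gm48512 and Rab26os at 62.3% each, Gm19412 at 59.1% and 4930512H18Rik at 57.1%. The posterior SD was 35.5% of the count for Gm17122 and 47.8% for Gm48512, so their counts were loosely placed. Both were listed at 0 in every library of the second quantification. Rab26os had 1.68, 1.60 and 4.40 TPM on 2, 2 and 8 counts, so its value is limited by depth. 4930512H18Rik, in contrast, had 119, 47.9 and 118 counts and levels of 6.11, 1.86 and 3.35 TPM. The steadiest were Zfp652os (3.16%), E130307A14Rik (3.64%), Gm48529 (3.94%), Plxna4os1 (5.06%) and Gm13822 (5.07%). E130307A14Rik, opposite the adaptor gene Traf3ip2, had 3.23, 3.28 and 3.46 TPM, against 2.82, 2.61 and 2.64 TPM. Zfp652os had 2.26, 2.17 and 2.31 TPM on 11, 13 and 19 counts. Gm13822 had 12, 14 and 21 counts, so depth limits the values of both genes. Their biological coefficients of variation were 31.8% for Zfp652os and 31.7% for Gm13822, above the antisense median of 29.8%.

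Replicate 2 was the lowest library for most antisense genes. It was lowest for 55 of the 101 (54.5%), replicate 1 for 31 and replicate 3 for 15. Of all expressed genes, 31.4% were lowest in replicate 2, and of the long intergenic genes 50.5%. The highest library was replicate 3 for 46 antisense genes (45.5%), replicate 1 for 35 (34.7%) and replicate 2 for 20 (19.8%). Among all expressed genes replicate 2 was the highest for 46.3%. Since TPM values are shares of a library, these are changes relative to all other RNA. This is also the library with the higher neutrophil markers, Ccr7, Mcpt8, Cpa3 and Prg2 given above, whose part in the pattern was not tested.

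**Figure D5:**
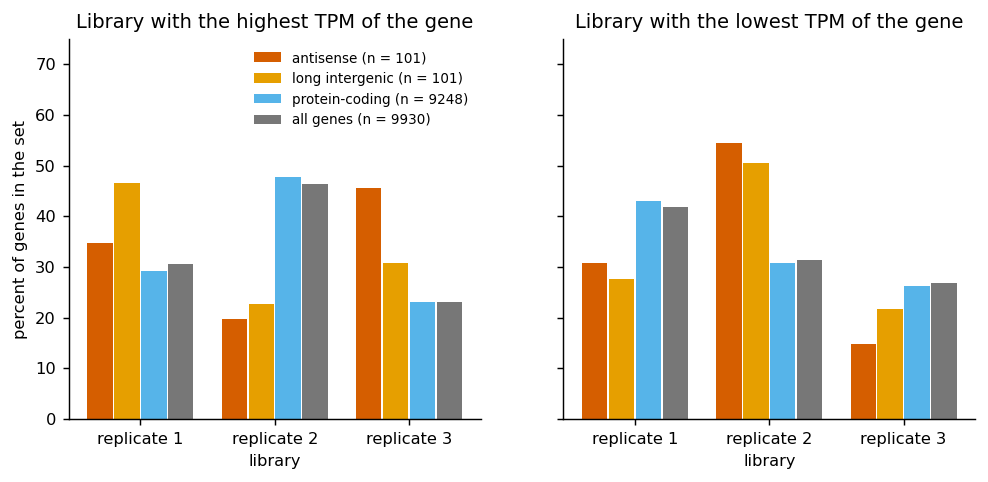
Percent of genes in each set whose TPM was highest (left) or lowest (right) in each of the 3 libraries, for antisense, long intergenic, protein-coding and all expressed genes. Replicate 2 was lowest for 54.5% of antisense genes and for 31.4% of all genes.

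Of the 101 antisense genes, 50 have several annotated transcripts. In 36 of these, the same transcript took the largest percent of the gene's TPM in all 3 libraries, against 86.0% of all 8813 expressed genes with several transcripts. The second quantification named the same transcript in all libraries for 38, and for 35 the leading transcript was the same one in both quantifications within each library. Tug1, with 8 transcripts, was led by a different transcript in each library, at 25.6%, 27.0% and 29.1% of its TPM in replicates 1, 2 and 3. No single Tug1 transcript was therefore dominant.

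Near the threshold the choice rests on small differences. The genes just inside were Gm44206 (lowest library 1.00 TPM), AC165962.1 (1.02), Gm26586 (1.03), 2510046G10Rik (1.06) and Gm48512 (1.09). Just outside were 0610039K10Rik (0.98), Gm16754 (0.96), Gm28529 (0.93), E430024P14Rik (0.89) and Gm15601 (0.89). Gm44206 passed on 2, 4 and 8.10 counts, while Gm16754, left out by its lowest library, had 64.5, 40.5 and 88.4 counts. Only 5 of the 101 had a mean count under 10.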

How the data were processed

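Levels came from the authors' deposited gene-level tables (mm10, GENCODE M21, per the readme deposited with each sample). Per the file headers these hold expected counts, which a model splits between genes, and TPM, a length-scaled share of each library. The posterior SD and the TPM bounds are scores of that model, as the authors deposited them, and deposited transcript tables give each transcript's percent of its gene's TPM. A second deposited transcript quantification, made from reads without an alignment, was summed per gene as TPM. The sources used here give neither programs nor strand settings. Entries without a gene identifier held 0.127%, 0.0798% and 0.0682% of the counts and were left out.

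The antisense genes, gene lists and rules were chosen with earlier results of these data known. Named genes are the 20 highest, the 5 at each end of variation, of the difference between quantifications and of the difference from the partner, those nearest the threshold, symbols ending in os and listed genes. Exon overlap and partners were taken from GENCODE M21. Log2 differences used TPM + 0.1, with no filter. Expected counts were rounded to whole numbers for a chi-square test (2 degrees of freedom, mean count at least 10, adjusted p under 0.05) after TMM scaling in edgeR 4.0.16 (R 4.3.3), which also gave dispersions. The test was checked on simulated data. DESeq2 1.42.0 size factors were an alternative. With a single group, groups could not be compared.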

Additional observations from a re-analysis of the deposited data

How the results depend on the processing

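The number of expressed antisense genes was 101, and it was 58 at a threshold of 2 TPM and 159 by the second quantification. It was 144 at a threshold of 0.5 TPM and 136 with a mean of at least 1 TPM. Leaving out 1 library gave 108 to 122 genes. Their summed level was 1279 TPM in the second quantification, against 992.9 TPM at the gene level. The median log2 difference from the partner was -2.27. It was -2.47 with the second quantification, -2.05 with a pseudocount of 1 and -2.57 with all opposite-strand genes summed, and -2.30 to -2.17 with 1 library left out. The number of genes called as varying was 52, and 25 to 45 with 1 library left out, the lowest without replicate 2. Over all genes tested the call was made for 70.9%, and for 41.9% to 60.9% with 1 library left out, also lowest without replicate 2. The cause was not tested. Of the values recomputed, 9 moved, 56 stayed on the same side by the rules used and 0 changed sign. These rules are wide, since they class the counts of 144 and 136 genes, against 101, as not moved. No paired analysis was possible because all 3 libraries belong to 1 group. Depth limits the genes with few counts. Strand use by the counting limits every gene with exons opposite a partner's.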

Other observations

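Some antisense genes reached 1 TPM in every library in the second quantification and not at the gene level. Gm20400, opposite Slco1a6, had 52.0, 40.7 and 33.4 TPM there and was listed at 0 in the gene-level table. Gm15564, opposite the interferon-inducible gene Parp9, had 46.0, 18.9 and 28.1 TPM and was also listed at 0. Gm15247, which like Gm15726 lies opposite Mid1, had 25.9, 18.4 and 11.0 TPM, against 2.62, 0.97 and 0.23 TPM at the gene level. Gm45892, opposite Bean1, had 5.76, 16.0 and 15.4 TPM and was listed at 0.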
